A study of Populus trichocarpa with 18 samples.

Results

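The genes described here are those of the first 2 steps of the phenylpropanoid pathway in black cottonwood, Populus trichocarpa: the 5 phenylalanine ammonia-lyase genes PtrPAL1 to PtrPAL5 and the 2 cinnamate 4-hydroxylase genes PtrC4H1 and PtrC4H2. They were chosen by identifier as the genes of these 2 enzymes, with no threshold on a measured value, though earlier results of these data were known. The identifiers are POPTR_0006s12870.1 for PtrPAL1, POPTR_0008s03810.1 for PtrPAL2, POPTR_0016s09230.1 for PtrPAL3, POPTR_0010s23100.1 for PtrPAL4, POPTR_0010s23110.1 for PtrPAL5, POPTR_0013s15380.1 for PtrC4H1 and POPTR_0019s15110.1 for PtrC4H2. All 7 were found among the 40668 loci of the count table, and all 7 were among the 23777 genes with enough reads to be tested.

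Phenylalanine ammonia-lyase removes the amino group of phenylalanine to give cinnamic acid, the step by which carbon leaves amino acid metabolism for phenylpropanoids. Cinnamate 4-hydroxylase, a cytochrome P450 of the endoplasmic reticulum, then adds a hydroxyl group to the ring and gives p-coumaric acid. In differentiating xylem most of this flow is used for the monolignols that polymerise into lignin in the secondary wall, and the same steps also feed flavonoids and other phenolics.

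The study asked which genes respond to PtrSND1-B1, which belongs to the NAC transcription factors and acts in wood formation. Protoplasts, which are cells stripped of their walls, were prepared from the stem differentiating xylem of greenhouse-grown plants and took up plasmid DNA with polyethylene glycol (PEG). The control libraries came from protoplasts overexpressing sGFP, a green fluorescent protein, and the others from protoplasts given PtrSND1-B1 together with sGFP, called PtrSND1-B1 protoplasts from here on. Each construct was sampled 7, 12 and 25 h after transfection. This gave 6 groups of 3 RNA-seq libraries, so all of them came from transfected protoplasts that carry sGFP. Whether replicates stem from different plants or isolations is not stated in the labels, so the p-values measure the spread between libraries, which may be technical.

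Library totals ran from 2690853 to 13970708 counts, and the 7 genes together held 0.057% to 0.399% of them. The locus taken as the transfected PtrSND1-B1 (POPTR_0014s10060.1) stood at 2.09 to 10.3 CPM, the counts scaled to a common library size, in the 9 sGFP libraries and at 418 to 3372 CPM in the 9 PtrSND1-B1 libraries. At 25 h it stood at 1582, 736 and 418 CPM in PtrSND1-B1 replicates 1, 2 and 3. Levels are given as CPM after scaling by trimmed mean of M-values (TMM). Transcript lengths were not used here, so levels are compared between libraries for 1 gene and never between genes. The xylem label was not checked against marker genes, because the files pair no identifiers with names. In these bulk libraries, fewer cells of a type and less RNA per cell cannot be told apart.

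None of the 7 genes differed between PtrSND1-B1 and sGFP protoplasts past the threshold at any time. Time after transfection and the replicate number took far larger shares of their spread. From 7 to 25 h, a fit with replicate number as a block called PtrPAL2, PtrPAL4, PtrPAL5 and PtrC4H1 higher under both constructs and PtrPAL3 higher under PtrSND1-B1, where 15.3% (sGFP) and 14.4% (PtrSND1-B1) of all genes were called higher. Without the block none of the 7 was called, and only PtrPAL2 and PtrC4H1 kept their blocked calls whichever single library of these times was left out. Libraries of the same time and number deviated together, so calls under both constructs are not independent results. PtrC4H2 did not follow this course: its level at 25 h was below that at 7 h in each of the 6 series of construct and number. The ratios of 25 h to 7 h ran from 0.495 to 0.953, a fall that did not pass the test. The 2 times overlapped under both constructs, and the share of all genes that fell in all 6 series was not counted.

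PtrPAL1 stood at 182, 121 and 214 CPM in sGFP replicates 1, 2 and 3 at 7 h, at 319, 118 and 216 CPM at 12 h, and at 172, 129 and 929 CPM at 25 h. Under PtrSND1-B1 it stood at 189, 106 and 188 CPM at 7 h, 316, 124 and 164 CPM at 12 h, and 274, 204 and 799.8 CPM at 25 h. The highest values at 25 h were those of replicate 3 under both constructs. At 12 h the highest values were those of replicate 1. The 25 h libraries lay above all 7 h libraries under PtrSND1-B1, and the 2 times overlapped under sGFP.

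PtrPAL2 stood at 96.2, 48.2 and 168 CPM in sGFP replicates 1, 2 and 3 at 7 h, at 234, 83.1 and 207 CPM at 12 h, and at 166, 111 and 559 CPM at 25 h. The PtrSND1-B1 libraries gave 117, 46.1 and 173 CPM at 7 h, 219, 93.3 and 163 CPM at 12 h, and 248, 156 and 511 CPM at 25 h. Replicate 2 was the lowest library in all 6 groups, as it was for every gene described here. The 7 and 25 h groups overlapped under each construct, yet inside every replicate number the 25 h library was the higher of the pair.

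PtrPAL3 stood at 228, 155 and 331 CPM in sGFP replicates 1, 2 and 3 at 7 h, at 636, 180 and 340.0 CPM at 12 h, and at 299, 173 and 1445 CPM at 25 h. Under PtrSND1-B1 its levels were 277, 124 and 240.2 CPM at 7 h, 583, 203 and 226 CPM at 12 h, and 471, 338 and 962 CPM at 25 h. The sGFP library of replicate 3 at 25 h was more than 2 times as high as any other sGFP library. All 3 PtrSND1-B1 libraries at 25 h lay above all 3 at 7 h.

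PtrPAL4 stood at 144, 64.3 and 192 CPM in sGFP replicates 1, 2 and 3 at 7 h, at 469, 139 and 210 CPM at 12 h, and at 186, 133 and 806 CPM at 25 h. The PtrSND1-B1 libraries gave 166, 63.9 and 152 CPM at 7 h, 434, 160 and 176 CPM at 12 h, and 268, 218 and 685 CPM at 25 h. Replicate 1 was highest at 12 h and replicate 3 at 25 h under each construct. PtrPAL5 carries the next identifier after PtrPAL4 and followed it closely, with 36.9 to 105 CPM in sGFP libraries at 7 h and 81.4 to 280.4 CPM at 12 h, while its 25 h libraries gave 110, 75.0 and 461 CPM. Under PtrSND1-B1 PtrPAL5 ranged from 37.7 to 94.2 CPM at 7 h, then 89.6 to 253 CPM at 12 h and 129 to 399 CPM at 25 h.

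PtrC4H1, for which the table holds 2 gene models with identical counts, stood at 110, 81.9 and 141 CPM in sGFP replicates 1, 2 and 3 at 7 h. The same replicates gave 250.2, 83.2 and 173 CPM at 12 h and 219.8, 123 and 541 CPM at 25 h. Under PtrSND1-B1 it stood at 124, 83.6 and 144 CPM at 7 h, 274, 89.0 and 150 CPM at 12 h, and 340.1, 163 and 455 CPM at 25 h. The PtrSND1-B1 libraries at 25 h lay above all those at 7 h, whereas the sGFP groups overlapped.

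PtrC4H2 stood at 167, 72.9 and 300.1 CPM in sGFP replicates 1, 2 and 3 at 7 h, at 175.5, 71.0 and 244 CPM at 12 h, and at 82.3, 56.4 and 276 CPM at 25 h. The PtrSND1-B1 libraries gave 191, 74.4 and 324 CPM at 7 h, 179.5, 70.6 and 228 CPM at 12 h, and 125, 67.7 and 309 CPM at 25 h. Replicate 3 was the highest in all 6 groups and replicate 2, as for the other genes, the lowest, and the times overlapped throughout.

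**Figure D1:**
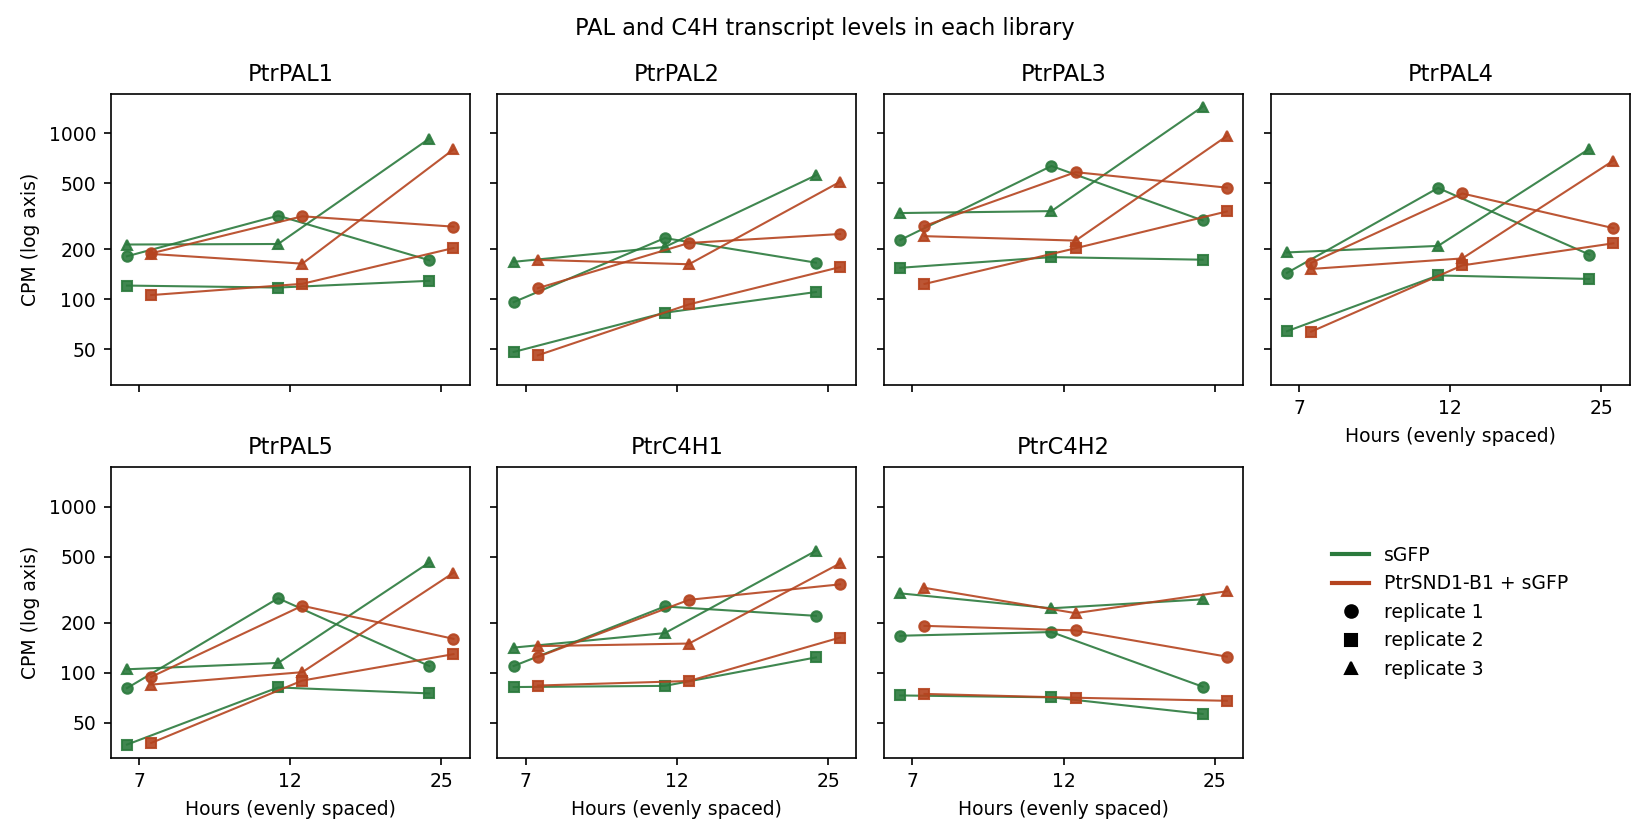
Level of each of the 7 genes in every library, in TMM-scaled CPM on a log axis, against hours after transfection, with the times evenly spaced and lines joining libraries of 1 number and construct. Replicate 3 stands highest at 25 h for all 7 genes under both constructs, and PtrC4H2 keeps the replicates apart at all 3 times.

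Ordered by mean level, the 6 groups of each gene except PtrC4H2 ran from the 7 h groups through the 12 h groups to the 25 h groups. For PtrPAL1 the order ran from 161 ± 47.6 CPM (SD, n = 3) in PtrSND1-B1 at 7 h and 172 ± 47.1 CPM in sGFP at 7 h up to 410 ± 450 CPM in sGFP at 25 h and then 426 ± 326 CPM in PtrSND1-B1 at 25 h. PtrC4H1 ran from 111 ± 29.8 CPM in sGFP at 7 h to 319 ± 147 CPM in PtrSND1-B1 at 25 h. PtrC4H2 kept no order of times: it was lowest in sGFP at 25 h (138 ± 120 CPM) and highest in PtrSND1-B1 at 7 h (197 ± 125 CPM), while PtrSND1-B1 at 25 h (167 ± 126 CPM) lay above both 12 h groups. For all 7 genes the ranges of neighbouring groups in this order overlapped.

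The comparison of PtrSND1-B1 with sGFP asks whether the pathway's entry genes respond to the factor. With groups compared without regard to replicate number, edgeR's quasi-likelihood test called 0 of the 7 genes at 7 h, where 0.0589% of all tested genes were called. It called 0 of 7 at 12 h (0.00841% of all genes), 0 of 7 at 25 h (0.00421%) and 0 of 7 for the mean of the 3 times (0.16%). At unadjusted p under 0.05 the number was also 0 for each, as it was with DESeq2. The log2 fold changes lay between -0.16 and 0.13 at 7 h, between -0.19 and 0.02 at 12 h and between -0.12 and 0.27 at 25 h. Their 95% intervals were wide, together reaching from -1.57 to 1.82 on the log2 scale at 25 h.

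Libraries of the same time and number deviated together, and comparing PtrSND1-B1 with sGFP inside these pairs gave much narrower intervals. The paired fit with edgeR again called 0 of the 7 genes at 7 h (3.42% of all genes were called), at 12 h (1.26%), at 25 h (0.442%) and for the mean of the 3 times (8.7%). Over the 7 genes the 95% intervals of the fold change ran from 0.643 to 1.29 at 7 h, from 0.642 to 1.21 at 12 h and from 0.903 to 1.72 at 25 h. For the mean of the times they ran from 0.824 to 1.20.

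At 25 h the paired log2 fold changes were all above 0, from 0.25 to 0.35. For 5 genes the unadjusted p was under 0.05, as it was for 1949 of all 23777 tested genes. The lowest adjusted p from edgeR was 0.13 and belonged to PtrC4H2 (log2 fold change 0.35, SE 0.0884, higher in 3 of 3 pairs). In replicate 1 all 7 genes were higher with PtrSND1-B1, by 1.44 to 1.59-fold, and in replicate 2 all 7 were higher, by 1.20 to 1.95-fold. In replicate 3 only PtrC4H2 was higher, and the 7 ratios ran from 0.666 to 1.12. Without the pair of replicate 3 at 25 h, 7 of 7 genes were called higher, with log2 fold changes of 0.48 to 0.79 and adjusted p from 0.000866 to 0.011, where 0.806% of all genes were called higher. That pair was singled out after its values were seen and is the pair that went the other way, so the count is a description. Without replicate 1 or without replicate 2 at 25 h the count was 0 of 7, with log2 fold changes of 0.03 to 0.20 and 0.02 to 0.36. Replicate 3 was the PtrSND1-B1 library with the lowest level of the transfected gene at 25 h, as it was at 7 h and at 12 h, and the part of this in the result was not tested.

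**Figure D2:**
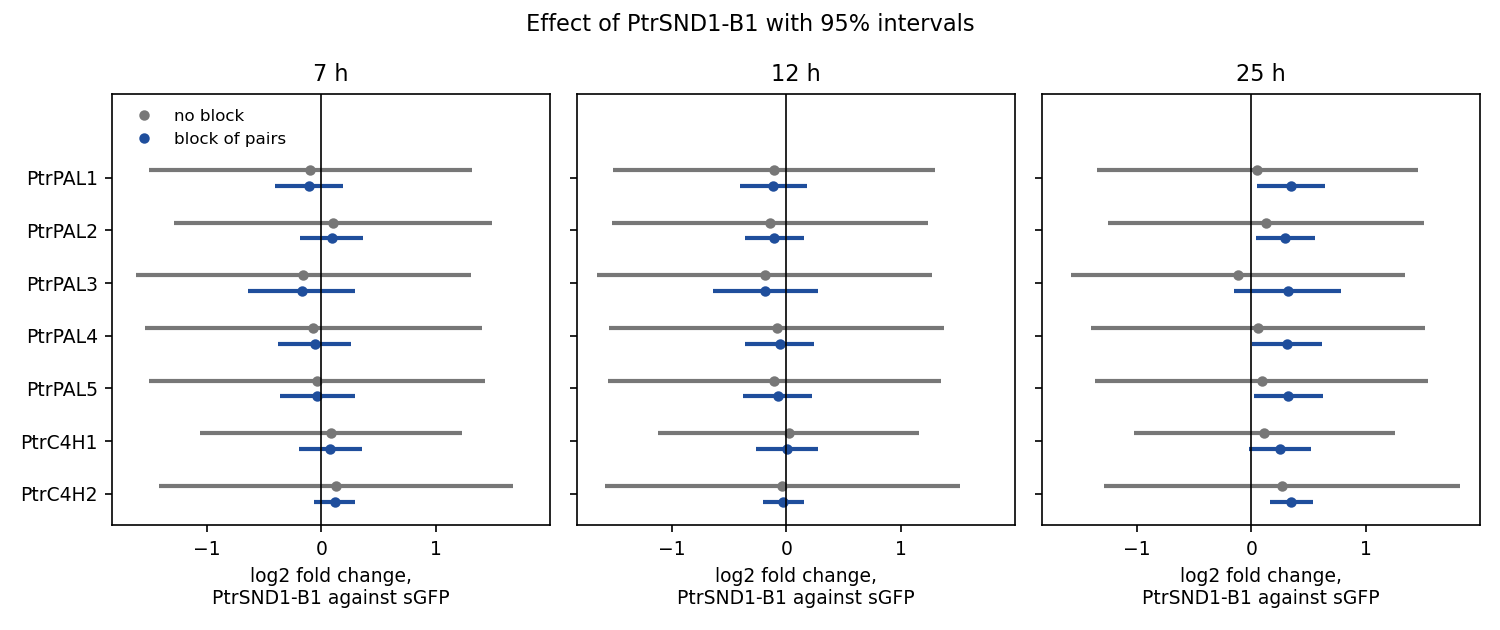
Log2 fold change of PtrSND1-B1 over sGFP for each of the 7 genes at 7, 12 and 25 h. Points are edgeR estimates and bars their 95% intervals, in grey for groups compared without a block and in blue for the fit inside pairs, whose estimates at 25 h run from 0.25 to 0.35.

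The pairs gave no common direction at the earlier times. At 7 h all 7 genes were higher with PtrSND1-B1 in replicate 1, with ratios of 1.04 to 1.21, and 3 of 7 were higher in each of replicates 2 and 3. At 12 h the numbers higher were 2, 6 and 0 in replicates 1, 2 and 3. Whether the effect differed between times was tested directly. Without pairing, edgeR called 0 of 7 genes for 12 h against 7 h, for 25 h against 12 h and for 25 h against 7 h, where 0%, 0% and 0% of all genes were called. In the paired fit, 0 of 7 were called for 25 h against 7 h (0.0673% of all genes), with differences of 0.17 to 0.49 on the log2 scale.

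The comparison of 25 h with 7 h describes the course of these genes in culture after transfection. Without regard to replicate number, edgeR called 0 of 7 genes in sGFP protoplasts (17.9% of all genes were called) and 0 of 7 in PtrSND1-B1 protoplasts (16.8%). At unadjusted p under 0.05 there were 4 of 7 genes in each, beside 7492 (sGFP) and 7361 (PtrSND1-B1) of all 23777 tested genes. DESeq2 called 1 of 7 in each, PtrC4H1, where 20.8% (sGFP) and 19.5% (PtrSND1-B1) of all genes were called. The log2 fold changes of the 5 PAL genes and PtrC4H1 were 1.25 to 1.54 in sGFP and 1.40 to 1.67 in PtrSND1-B1. Those of PtrC4H2 were -0.38 (SE 0.728, adjusted p 0.769) and -0.24 (SE 0.729, adjusted p 0.861).

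When replicate numbers entered the fit as a block, 4 of 7 genes were called higher at 25 h in sGFP protoplasts, where 15.3% of all genes were called higher. This fit takes libraries of the same time and number as independent, although they deviated together, so its adjusted p may be too small. PtrPAL2 rose by 1.31 on the log2 scale (SE 0.302, adjusted p 0.00415, edgeR) and PtrC4H1 by 1.25 (SE 0.322, adjusted p 0.00823). PtrPAL4 rose by 1.37 (adjusted p 0.0435) and PtrPAL5 by 1.42 (adjusted p 0.0405), both close to the threshold. PtrPAL1 (0.95, adjusted p 0.151), PtrPAL3 (1.16, adjusted p 0.0937) and PtrC4H2 (-0.47, adjusted p 0.0983) did not pass.

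In PtrSND1-B1 protoplasts the block gave 5 of 7 genes called higher, where 14.4% of all genes were called higher. PtrPAL2 rose by 1.48 (SE 0.302, adjusted p 0.00196, edgeR) and PtrC4H1 by 1.35 (SE 0.320, adjusted p 0.00515). PtrPAL3 rose by 1.43, PtrPAL4 by 1.61 and PtrPAL5 by 1.66, with adjusted p of 0.043, 0.0214 and 0.02. PtrPAL1 (1.23, adjusted p 0.0636) and PtrC4H2 (-0.27, adjusted p 0.343) did not pass. A call in one construct and not in the other does not show that PtrPAL3 differed between them, and the difference of effect between 25 and 7 h named above was called for none of the 7.

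PtrPAL2 and PtrC4H1 kept their calls under both constructs whichever single library of the 7 or 25 h groups was left out of the blocked fit. The other calls were less steady: in sGFP PtrPAL4 was called in 4 and PtrPAL5 in 5 of the 12 fits with 1 library left out, and in PtrSND1-B1 PtrPAL3 was called in 4 and PtrPAL4 and PtrPAL5 in 8 each. The count in sGFP fell from 4 to 2 without any 1 of the sGFP libraries at 7 h, sGFP replicate 3 at 25 h, or any 1 of the PtrSND1-B1 libraries at 7 h. The count in PtrSND1-B1 fell from 5 to 2 without replicate 2 or 3 of PtrSND1-B1 at 7 h or without replicate 2 or 3 at 25 h. Without replicate 3 of both constructs at 25 h, an omission chosen after the data were seen, PtrPAL2 (0.81, adjusted p 0.0212) and PtrC4H1 (0.68, adjusted p 0.0346) were still called higher in sGFP. In sGFP PtrPAL1 then stood at -0.11 and PtrPAL3 at 0.01, and PtrC4H2 fell by 0.78 (adjusted p 0.00351). In PtrSND1-B1 the same omission gave 6 of 7 called higher, among them PtrPAL1 (0.67, adjusted p 0.0355), and PtrC4H2 stood at -0.46 (adjusted p 0.0595). The shares of all genes called in these blocked fits with libraries left out are not given here. The counts therefore cannot be set against the general change with time. PtrC4H2 was called in 1 of the 12 fits in sGFP and in 0 of 12 in PtrSND1-B1.

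The separate numbers show the same unevenness. All 3 libraries at 25 h lay above all 3 at 7 h for 0 of 7 genes in sGFP, against 16.2% of all genes, and for 5 of 7 in PtrSND1-B1, against 16.8%. The 5 were PtrPAL1, PtrPAL3, PtrPAL4, PtrPAL5 and PtrC4H1. Inside each replicate number, the 25 h library was the higher for 5 of 7 genes in sGFP (25.9% of all genes) and for 6 of 7 in PtrSND1-B1 (26.4%). PtrPAL1 was the further exception in sGFP, with ratios of 25 h to 7 h of 0.947, 1.07 and 4.34 in replicates 1, 2 and 3.

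**Figure D3:**
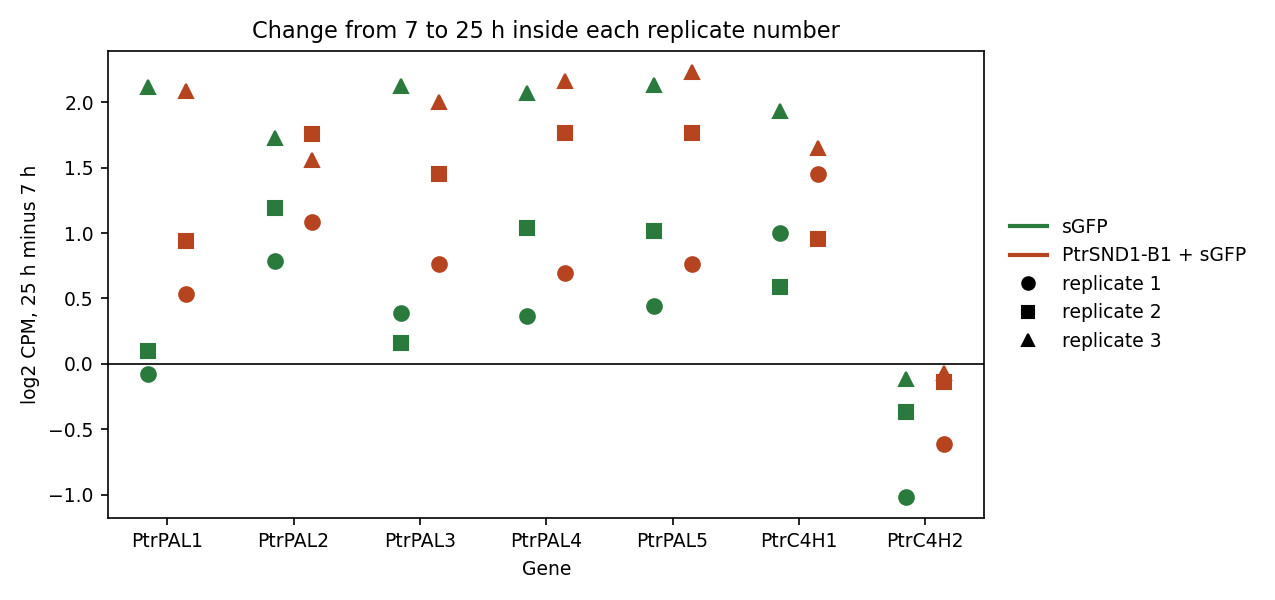
Difference in log2 CPM between 25 and 7 h for each of the 7 genes in sGFP and PtrSND1-B1 protoplasts, with 1 point for each replicate number. PtrC4H2 lies below 0 in all 6 series, and the PtrPAL1 points in sGFP spread from near 0 to the level of a 4.34-fold change.

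The intermediate time gave no calls. For 12 h against 7 h, edgeR called 0 of 7 genes in sGFP (0.231% of all genes) and 0 of 7 in PtrSND1-B1 (0.206%). For 25 h against 12 h it called 0 of 7 in sGFP (0.686%) and 0 of 7 in PtrSND1-B1 (0.715%). The time of the highest level depended on the replicate number. In sGFP replicate 1 all 7 genes were highest at 12 h, and in PtrSND1-B1 replicate 1 the same was true of PtrPAL1, PtrPAL3, PtrPAL4 and PtrPAL5. In replicate 3 of both constructs and in replicate 2 of PtrSND1-B1, 6 of 7 genes were highest at 25 h and PtrC4H2 at 7 h.

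The libraries with the highest summed level of the 7 genes also stood apart in their scaling. The 4 lowest TMM factors, from 0.797 to 0.906, belonged to replicate 3 at 25 h and replicate 1 at 12 h of both constructs. These same 4 libraries had the highest summed level of the 7 genes, from 2259 to 5017 CPM, while the others had 536 to 1885 CPM. PtrC4H2 alone was highest elsewhere, in PtrSND1-B1 replicate 3 at 7 h, with a factor of 1.09. The part of library composition in the result was not tested. With library size as the only scaling, the median of all genes moved by -0.16 in sGFP and -0.18 in PtrSND1-B1 from 7 to 25 h. The log2 changes of the 5 PAL genes and PtrC4H1 were then 0.94 to 1.24 in sGFP and 1.19 to 1.46 in PtrSND1-B1. Those of PtrC4H2 were -0.67 and -0.46. Relative to that median, which again adjusts for composition, the former were 1.10 to 1.40 in sGFP and 1.37 to 1.64 in PtrSND1-B1. Those of PtrC4H2 were -0.50 and -0.28.

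Dividing each gene's spread over the 18 libraries (sum of squares of log2 CPM) by factor gave the construct, averaged over the times, the smallest share. A construct effect that differs between times falls in the remainder, which took 1.22% (PtrC4H2) to 8.37% (PtrPAL3). For PtrPAL2 time took 34.9%, replicate number 52.8%, their combination 9.64% and construct 0.297%. For PtrC4H1 time took 41.8%, number 41.0%, the combination 14.2% and construct 0.508%. PtrPAL1, PtrPAL3, PtrPAL4 and PtrPAL5 had a larger share in the combination of time and number, from 26.9% to 32.9%. PtrC4H2 stood apart, with 89.8% for replicate number and 3.35% for time. The medians over all tested genes were 27.2% for time, 22% for number and 1.77% for construct.

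**Figure D4:**
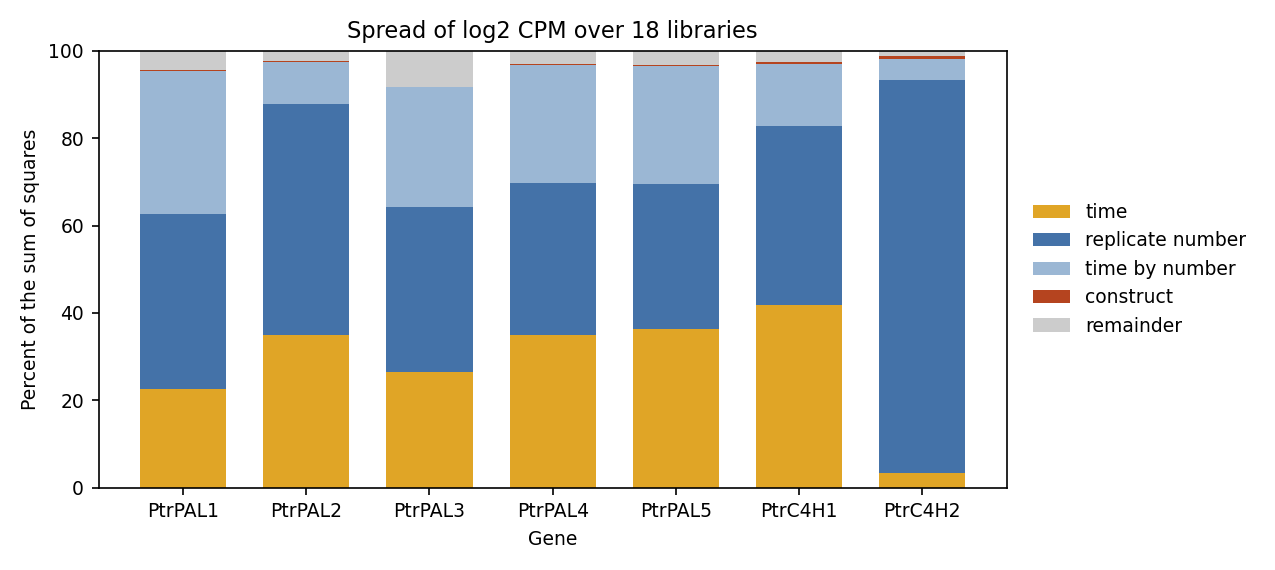
Share of each gene's sum of squares of log2 CPM over 18 libraries, in percent, taken by time, replicate number, their combination, construct and the remainder. Replicate number takes 89.8% for PtrC4H2, and construct, averaged over the times, takes under 1% for each of the 7 genes. The remainder includes construct effects that differ between times.

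The genes other than PtrC4H2 moved together from library to library. Over the 18 libraries, Pearson's r of log2 CPM lay between 0.913 and 0.999 for the 15 pairs among the 5 PAL genes and PtrC4H1. It lay between 0.530 and 0.662 for the 6 pairs that include PtrC4H2. These values describe libraries that share times, numbers and scaling. With group means removed, the ranges were 0.912 to 0.999 and 0.812 to 0.970, so PtrC4H2 tracked the others more closely among libraries of 1 group than across groups.

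PtrPAL4 and PtrPAL5 were the closest pair. Their count ratio stayed between 1.67 and 1.83 in the 18 libraries, with a chi-square of 0.395 per degree of freedom, where counting noise alone gives about 1. For the other 20 pairs this value ran from 13.4 to 275. How reads that map equally well to 2 genes were counted is not given in the sources used here, so the division of reads between these 2 neighbours is uncertain. The numbers of genes called count them as 2 genes, although they may not be separate results.

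The ratio of PtrC4H1 to PtrC4H2 counts was higher at 25 h than at 7 h in every library, with the 12 h values overlapping those at 7 h. It was 0.657, 1.12 and 0.472 in sGFP replicates 1, 2 and 3 at 7 h, 1.43, 1.17 and 0.708 at 12 h, and 2.67, 2.19 and 1.96 at 25 h. With PtrSND1-B1 it was 0.650, 1.12 and 0.446 at 7 h, 1.53, 1.26 and 0.656 at 12 h, and 2.72, 2.40 and 1.47 at 25 h. It was higher at each later time inside every replicate number of both constructs, and the 7 and 25 h ranges did not overlap. Under PtrSND1-B1 the 12 h range also overlapped the 25 h range. On the log2 scale the difference between 25 and 7 h was 1.68 in sGFP and 1.63 in PtrSND1-B1. For each, the two-sided exact permutation p was 0.1, the smallest that 3 libraries against 3 allow, and 0.2 after Benjamini-Hochberg adjustment over 6 comparisons. The ratio was not among the planned tests, so these p-values only describe values already seen. A ratio within a library shows that the 2 genes changed unequally and does not depend on the scaling.

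The ratio of PtrPAL4 to PtrPAL1, chosen after the values were seen, followed another course. In sGFP it was 0.531 to 0.896 at 7 h, then 0.974 to 1.47 at 12 h, then 0.867 to 1.08 at 25 h. The PtrSND1-B1 libraries gave 0.602 to 0.875, then 1.07 to 1.37, then 0.857 to 1.07 at these times. At 12 h it lay above the 7 h range in all 6 libraries.

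**Figure D5:**
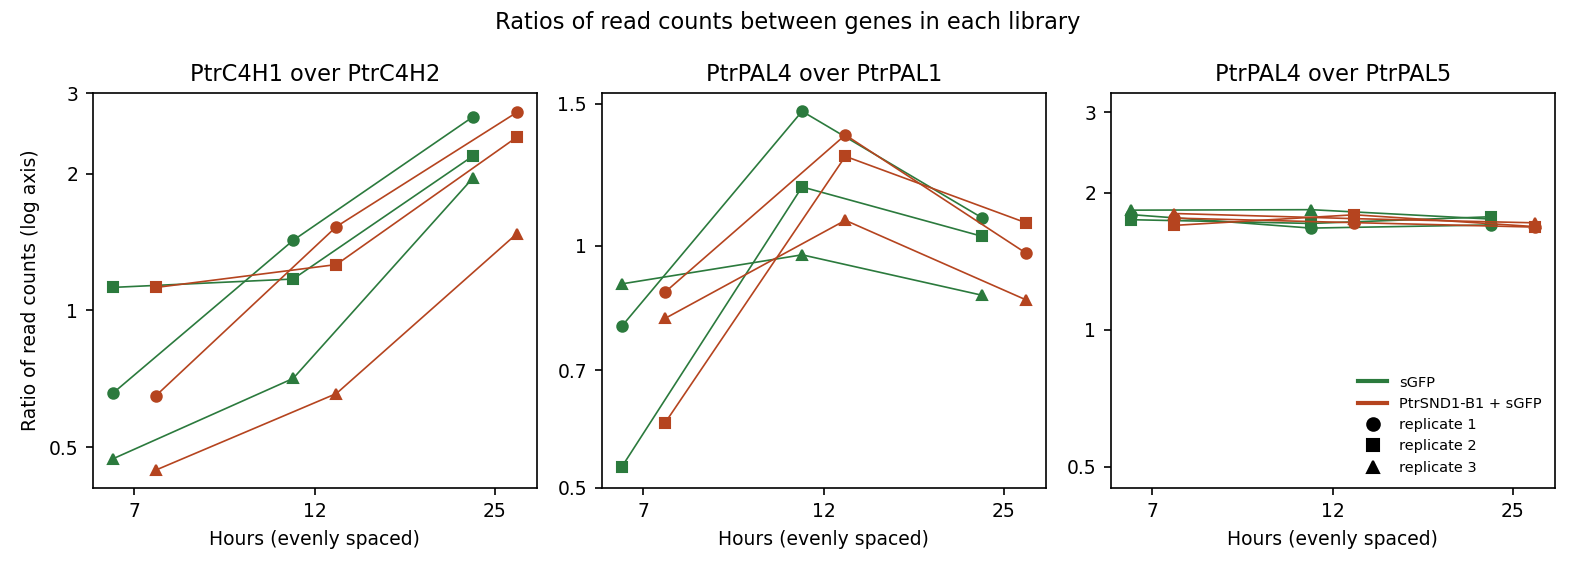
Ratios of PtrC4H1 to PtrC4H2, PtrPAL4 to PtrPAL1 and PtrPAL4 to PtrPAL5 counts in each of the 18 libraries, on log axes of different span, against hours after transfection, evenly spaced, with lines joining libraries of 1 number and construct. The first is 0.446 to 1.12 at 7 h and 1.47 to 2.72 at 25 h, and the last stays at 1.67 to 1.83.

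Among the 23770 other tested genes, 90 (0.379%) had a Pearson's r of at least 0.9 with the mean profile of the 7 genes over the 18 libraries. That profile was the mean of their log2 CPM after each gene was scaled to the same mean and spread. PtrC4H2 itself had r = 0.695 with it. The 6 other genes most like the profile had r from 0.955 to 0.973. The first was POPTR_0008s05650.1, at 82.3 to 216 CPM (r = 0.973), and the next was POPTR_0006s25670.1, at 30.5 to 156 CPM (r = 0.966).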

How the data were processed

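RNA-seq was read from 1 table of raw counts per gene model in 18 libraries, deposited by the authors. The submitters' processing notes list TopHat and edgeR but give neither role nor version. Genome build, annotation, counter, strand setting, handling of multiply mapping reads and gene positions were not given in the sources used here. The 7 genes and all lists were chosen with earlier results of these data known. They were the genes named by rule, with the 6 genes whose profile was most like theirs. Lists of other pathway genes and of cell type markers were planned but not analysed here, because 0 identifiers matched the reference table of names.

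The first model of each locus was kept (40668 of 45033 models). filterByExpr with the 6 groups left 23777 genes. TMM factors ran from 0.797 to 1.09. The quasi-likelihood test of edgeR 4.0.16 (R 4.3.3) was fitted to all genes and 18 libraries, with 12 residual degrees of freedom, 10 with a block for replicate number and 6 with each pair of libraries as a block. The last fit compares constructs within a time and cannot compare times. P-values were adjusted by Benjamini-Hochberg over all tested genes and called under 0.05. Standard errors were the log2 fold change divided by the square root of F. CPM used TMM-scaled library sizes, and log2 CPM a prior count of 2. The 9 pairs of same-numbered libraries deviated together (r of deviations from group means 0.345 to 0.752), so the numbers were treated as pairing the libraries. This comes from the data, not the labels. These r compare the 2 constructs inside a time. They do not show that a number joins libraries of different times, which the block for replicate number assumes.

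The 7 genes had 164 to 8985 counts per library, where counting alone gives a coefficient of variation of 7.81% to 1.05%. With no molecular identifiers named, reads are not independent molecules and these figures cover counting error only. Alternatives were DESeq2 1.42.0, library size as the only scaling, no filter, only the groups compared, the replicate block, and leaving out each library or pair. The fits without a block and with the replicate block were first run on simulated counts. Those counts held no deviation shared by libraries of the same time and number. The paired fit was not simulated.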

Additional observations from a re-analysis of the deposited data

How the results depend on the processing

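The counts of PAL and C4H genes called for PtrSND1-B1 against sGFP, and for the time steps to and from 12 h, stayed at 0 of 7 under the replicate block, DESeq2, its size factors, library size alone, no filter, only the groups compared, every gene model, and each single library left out. For 25 h against 7 h in sGFP, the count of 0 became 4 with the replicate block (31.9% of all genes were called in either direction) and 1 with DESeq2 (20.8%). It ran from 0 to 1 with single libraries left out, and the 1 came where 13.3% of all genes were called. In PtrSND1-B1 the count of 0 became 5 with the replicate block (30.8%), 1 with DESeq2 (19.5%) and 1 with only the groups compared (14.5%). With single libraries left out it ran from 0 to 1, and the 1 came where 17.9% of all genes were called. Each single call was PtrC4H1. With single libraries left out of the blocked fit, the counts called higher ran from 2 to 6 in sGFP and from 2 to 6 in PtrSND1-B1. Without replicate 3 of both constructs at 25 h the sGFP count was 2 and the PtrSND1-B1 count 6. Shares of all genes called are not given here for these blocked fits with libraries left out. In the paired fit, leaving out single pairs gave counts from 0 to 7 at 25 h, 0 to 3 for the mean of the times, 0 to 6 for the effect at 25 h less that at 12 h and 0 to 4 for that at 25 h less that at 7 h. Each upper value came without replicate 3 at 25 h. Of the 24322 genes then tested, 384, 1984, 126 and 409 were called in these comparisons, in the same order. The cause of the change in counts was not tested. Leaving aside the fits with pairs left out of the paired fit, 115 of 777 fold changes between constructs changed sign and none was called; of 378 for 25 h against 7 h, 7 changed sign.

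Limits are the 3 libraries a group, their unstated origin, and pairing inferred from the data, for which only libraries of the same time were compared. Lists of other pathway genes and levels per kilobase were not run, because names and lengths were not matched.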
